A study of Danio rerio with 25 samples.

Results

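Endothelial, endocardial and lymphatic genes were followed in RNA from sorted adult zebrafish heart cells. The 34 genes were given by name and were found by matching names without regard to case, which yielded 35 Ensembl IDs of the 31901 gene rows counted. pecam1 was counted as pecam1a and etv2 as etsrp, their current names, and fli1a, esama and aqp8a.1 were listed without their paralog letters as FLI1, ESAM and AQP8. The names cldn5a and cldn5b led to a pair of IDs that are both called CLDN5, and notch1b led to a pair called NOTCH1, so these rows are given by ID and their paralogs could not be told apart. All 35 IDs had counts in at least 1 library, and 34 passed the filter on low counts and were tested. sox17, a SoxF transcription factor, was the exception.

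All 25 libraries came from fish of 1 strain, which carries the transgenes sox10:CreERT2 and, as a reporter, vmhcl:loxP-tagBFP-loxP-mCherry-NTR. In it a drug-inducible Cre under the sox10 promoter switches a cardiac reporter under the vmhcl promoter from blue (BFP) to red (RFP, mCherry), so that the red gate holds cells with a history of sox10 promoter activity and the blue gate holds reporter cells without recombination. NTR is nitroreductase, carried in the red cassette. Each tube held 20 sorted cells, described by the submitters as cardiomyocytes, and was prepared with Smart-seq2. Hearts had been frozen locally, which kills part of the ventricle (cryoinjury, CI), or were uninjured (UN). The groups were CI_RFP with 12 libraries, CI_BFP with 3, UN_RFP with 6 and UN_BFP with 4. All 4 groups carry the same transgenes. The fish were adults, and the sources used here do not give their exact age, the time after injury, the Cre induction or the number of fish behind a tube. Nothing says that libraries of a group came from separate fish, so the p-values measure only the spread between these tubes.

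The endothelium lines blood and lymph vessels and the endocardium lines the chambers of the heart. Both are kept by ETS and SoxF transcription factors, sense VEGF and angiopoietin ligands through receptor tyrosine kinases, and hold together through VE-cadherin junctions. In the zebrafish heart, endocardium and vessels respond to cryoinjury, and lymphatic vessels grow after it. In tubes of pooled cells, fewer cells of a type and less RNA per cell cannot be told apart.

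Total counts ran from 5644279 to 11981012 per library with a median of 8802372, and detected genes from 1226 to 15380 with a median of 10261. Levels are given as CPM, read counts scaled to each library's TMM-adjusted size. Of 15 cardiomyocyte marker IDs, between 10 and 14 reached 1 CPM in each library. Their summed level was 1538 to 304040.0 CPM in CI_RFP, 8428 to 17199 in CI_BFP, 9655 to 174554 in UN_RFP and 1841 to 21342 in UN_BFP. The ventricular myosin gene vmhc, relative of the reporter's promoter gene, lay between 162 and 297 CPM in CI_BFP and between 0.407 and 3278 CPM in UN_BFP. It ran from 0 to 53551 CPM in CI_RFP with a median of 16.1, where 8 of 12 libraries held 20.8 CPM or less, and from 14.03 to 21771 CPM in UN_RFP with a median of 3992. Another cardiac myosin gene, myh6, lay between 239 and 4334 CPM in those 8 libraries (CI_RFP 3 to 7 and 9 to 11). It was at 0 to 6.55 CPM in CI_RFP 1, 2, 8 and 12 and at 0 to 2.21 CPM in CI_BFP. UN_BFP 1 held 92.4 CPM of myh6 and the other UN_BFP libraries 0. UN_RFP 3 and UN_RFP 6 held 687 and 873 CPM, and the other UN_RFP libraries 0 to 2.85 CPM. Library UN_RFP 5 stood apart with 1226 detected genes. Libraries are numbered in the order of deposition, and the number carries no other meaning.

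Most of the endothelial and endocardial genes were detected in all 7 BFP libraries but in 8 of the 18 RFP libraries. In the BFP gate, between 22 and 32 of the 35 members reached 1 CPM. In CI_RFP the lowest number was 2, the median 24.5 and the highest 34. These 12 libraries lay apart in 7 with 24 to 34 members (replicates 1, 3, 4, 6, 9, 10 and 11) and 5 with 2 to 11 members (replicates 2, 5, 7, 8 and 12). In UN_RFP the number was 12, 5, 9, 6, 1 and 27 in replicates 1 to 6, so that a single uninjured RFP library reached the range of the BFP gate. Genes detected overall moved with these counts in part: the BFP libraries held 6920 to 14408 genes, and 5 of the 10 RFP libraries with few members (CI_RFP 5 and 8, UN_RFP 1, 4 and 5) held 1226 to 5886, while the other 5 (CI_RFP 2, 7 and 12, UN_RFP 2 and 3) held 8254 to 10879. The part of overall detection in the member counts was not tested.

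The summed level of the members had a higher median in the BFP gate than in the RFP gate in both conditions. It was 5532, 1197 and 2785 CPM in the CI_BFP libraries and 4309, 3615, 5271 and 2132 CPM in the UN_BFP libraries. It ran from 47.3 to 2540.3 CPM in CI_RFP with a median of 553, and from 96.6 to 4506 CPM in UN_RFP with a median of 774. As a share of all counts the members made up between 0.124% and 0.744% in the BFP gate and between 0.00348% and 0.544% in the RFP gate. Both gates overlapped in each condition. Without aqp8a.1, a water channel gene that held much of the sum in several libraries, the UN_BFP libraries lay close together at 2094, 1951, 1894 and 1906 CPM, with 5 UN_RFP libraries below at 96.6 to 1174 CPM and UN_RFP 6 above at 2674 CPM.

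**Figure D1:**
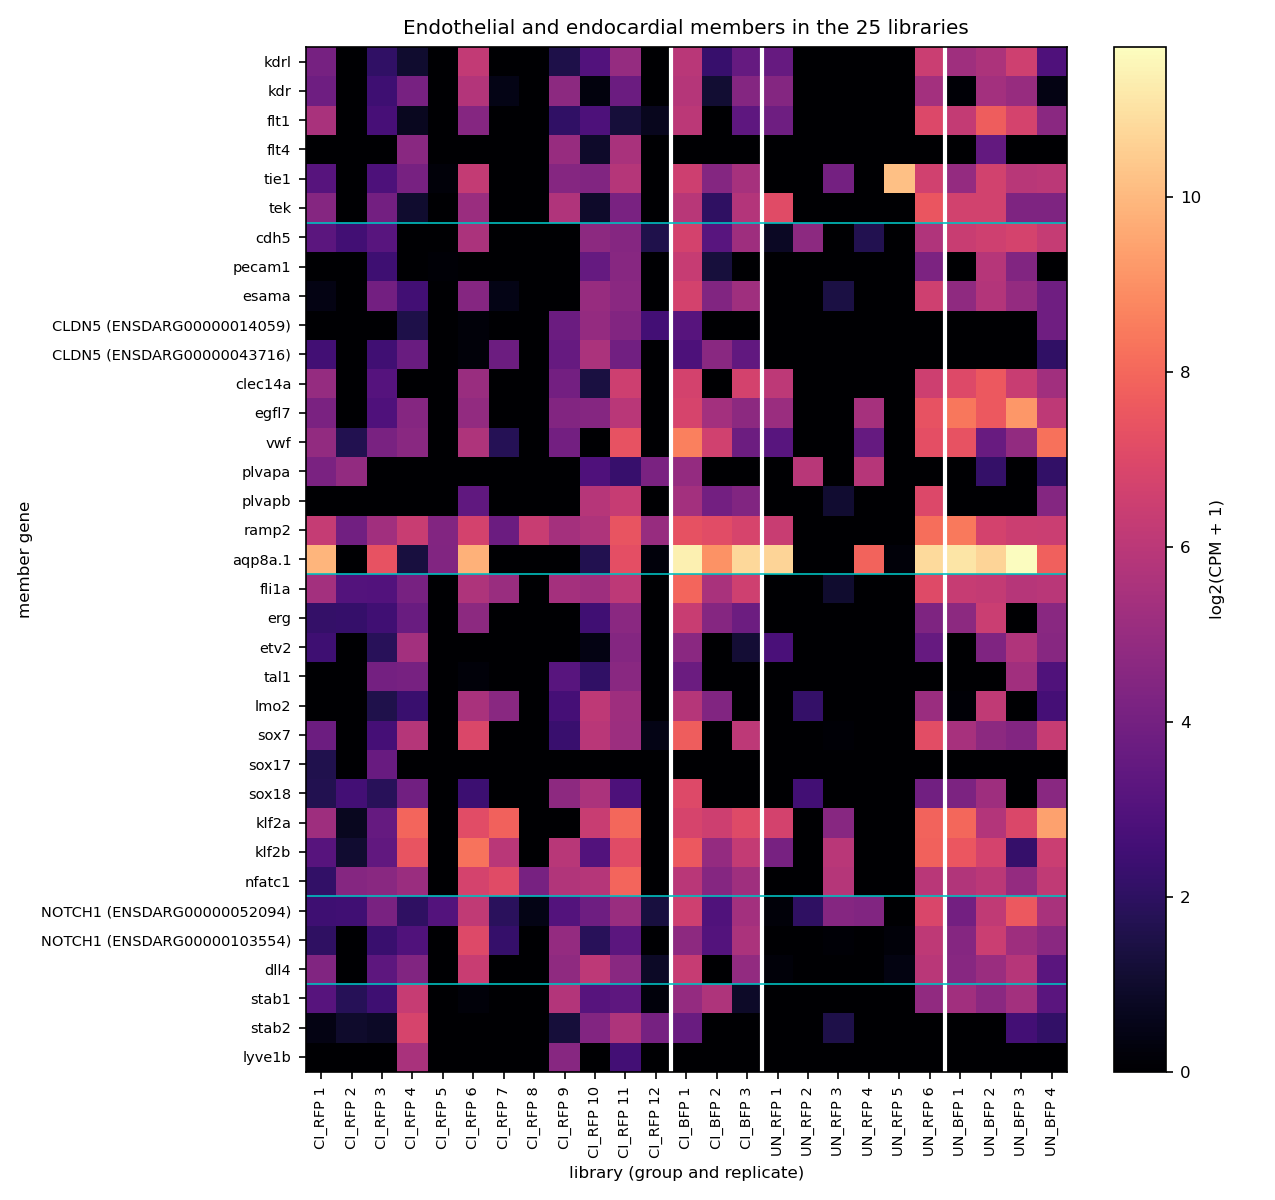
Level of each of the 35 member IDs (rows) in each of the 25 libraries (columns) as log2(CPM + 1), with white lines between the 4 groups and cyan lines between receptors, surface and junction genes, transcription factors, Notch genes and scavenger or lymphatic receptors. The BFP libraries hold 22 to 32 members at or above 1 CPM, while libraries such as CI_RFP 5, CI_RFP 8 and UN_RFP 5 hold 3, 2 and 1.

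**Figure D2:**
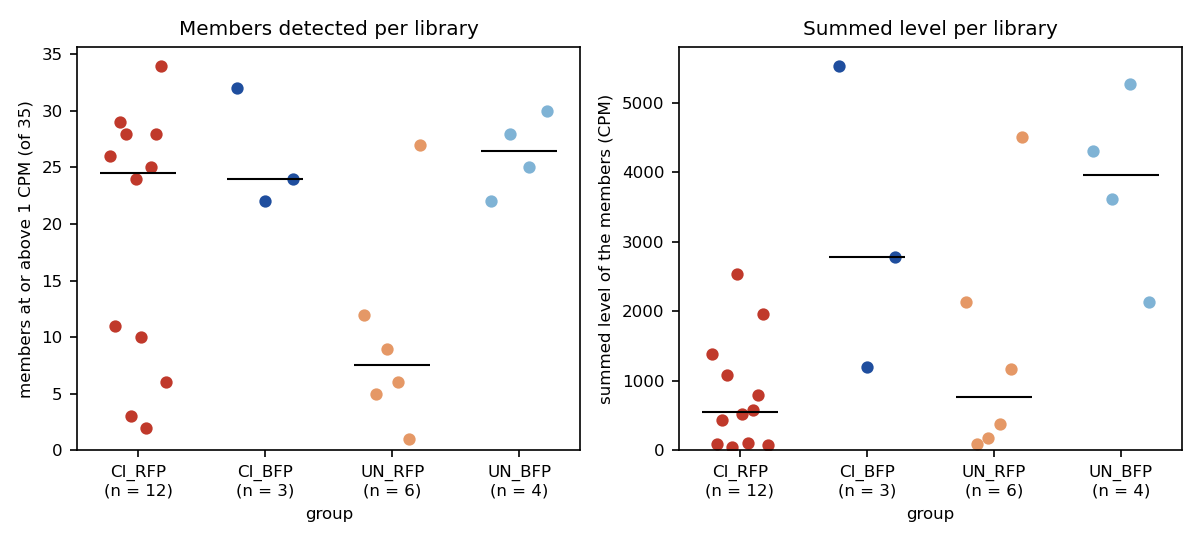
Number of members at or above 1 CPM (left) and their summed level in CPM (right) in each library, 1 point per library, with a line at the group median. The 4 UN_BFP libraries hold 22 to 30 members, and UN_RFP libraries hold 1 to 12 except for UN_RFP 6 with 27.

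Markers of other cell types also varied from tube to tube. The fibroblast and epicardium list (16 IDs) summed to 83.5 CPM or less in CI_RFP 1, 2, 5, 8 and 12 and in UN_RFP 1, 2, 4 and 5, and to between 1284 and 44654 CPM in the other 16 libraries. CI_RFP 4 and CI_RFP 11, which had the highest sums of this list, also held 28 and 34 members. CI_RFP 1 went the other way, with 26 members at a list sum of 44.9 CPM, and so did CI_RFP 7, with 10 members at 27913 CPM. The leukocyte list (13 IDs) summed to 1950.1, 10856 and 7494 CPM in CI_BFP, to between 221 and 12189 CPM in UN_BFP, to between 0.81 and 5735 CPM in CI_RFP and to between 0 and 4866 CPM in UN_RFP. It did not track the members in every tube, since CI_RFP 1 and 4 held 26 and 28 members at leukocyte sums of 2.72 and 37.9 CPM, and UN_RFP 1 held 12 members at 4866 CPM. The mural list (12 IDs) summed to between 118 and 6535 CPM over all libraries, with 2128 CPM in UN_RFP 5, the library with 1 member. The part of these cell types in the results on the members was not tested.

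The VEGF receptors kdrl and kdr and the Tie receptors had counts in all 7 BFP libraries. They had counts in 7 or 8 of 12 CI_RFP libraries and in 2 or 3 of 6 UN_RFP libraries. kdrl, the main VEGF receptor gene of zebrafish endothelium, stood at 62.1, 3.81 and 10.8 CPM in CI_BFP and at 37.4, 47.9, 93.8 and 6.39 CPM in UN_BFP. In CI_RFP it ran from 0 to 72.8 CPM with a median of 1.46, and in UN_RFP only UN_RFP 1 at 10.9 CPM and UN_RFP 6 at 84.7 CPM had any count. The lowest BFP values therefore lay within the range of the RFP libraries in both conditions.

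Its relative kdr was at or above 1 CPM in 6 of 12 CI_RFP, 3 of 3 CI_BFP, 2 of 6 UN_RFP and 2 of 4 UN_BFP libraries, with a highest level of 56.6 CPM in CI_BFP 1. flt1, whose product binds VEGF and limits its signal, measured 74.0, 207, 107 and 23.9 CPM in UN_BFP and 63.5, 0 and 9.31 CPM in CI_BFP. Its CI_RFP values ran from 0 to 44.8 CPM with a median of 1.03, and its UN_RFP values from 0 to 125 CPM with a median of 0. In UN_BFP the gene was thus present in every library, and in UN_RFP in 2 of 6.

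tie1, an orphan partner of the angiopoietin receptor, measured 90.7, 20.8 and 42.2 CPM in CI_BFP and 29.0, 101.2, 59.1 and 64.3 CPM in UN_BFP. In CI_RFP it ran from 0 to 75.4 CPM with a median of 6.96. Its highest value in the series was 1174 CPM (7421 reads) in UN_RFP 5, the library with 1226 detected genes, where no other member reached 1 CPM. tie1 in UN_RFP 5 therefore stood without the other endothelial genes, and the mean of tie1 in UN_RFP, 215 ± 472 CPM (SD, n = 6), rests on that library. tek, the angiopoietin receptor, was at 59.8, 3.07 and 54.9 CPM in CI_BFP and 101.4, 99.0, 18.2 and 18.7 CPM in UN_BFP, with up to 50.5 CPM in CI_RFP and up to 178 CPM in UN_RFP.

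Among the junction genes, cdh5 was the 1 member of 34 whose gates did not overlap in uninjured hearts, where 0.929% of all genes did not. cdh5 encodes VE-cadherin, the adhesion molecule of endothelial junctions. It measured 83.3, 92.8, 106 and 77.1 CPM in UN_BFP, or 89.7 ± 12.4 CPM (SD, n = 4). In UN_RFP the lowest value was 0, the median 1.47 and the highest 51.5 CPM, so every UN_BFP library lay above every UN_RFP library. The quasi-likelihood test did not call this difference (log2 fold change -2.76, SE 1.73, edgeR adjusted p = 0.484). After injury the gates overlapped, with 104, 8.05 and 36.0 CPM in CI_BFP and 0 to 46.6 CPM in CI_RFP with a median of 3.45.

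pecam1, an adhesion molecule between endothelial cells, was sparse. It stood at 80.3, 1.48 and 0 CPM in CI_BFP and at 0, 58.4, 19.8 and 0 CPM in UN_BFP, and it reached 1 CPM in 3 of 12 CI_RFP and 1 of 6 UN_RFP libraries, with 22.4 and 17.8 CPM at most. Its paralog pecam1b, which the name table lists apart, rose no higher than 91.4 CPM in any library. esama, a junctional adhesion molecule, measured 102, 19.6 and 37.3 CPM in CI_BFP and 26.5, 54.0, 28.9 and 13.6 CPM in UN_BFP. In CI_RFP its range was 0 to 31.3 CPM with a median of 0.374, and in UN_RFP its range was 0 to 94.3 CPM with a median of 0. esama had counts in every BFP library and in 9 of the 18 RFP libraries.

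The CLDN5 rows, which count claudin genes of endothelial tight junctions, had no count in any UN_RFP library. CLDN5 (ENSDARG00000043716) measured 6.29, 23.1 and 10.05 CPM in CI_BFP and 0, 0, 0 and 3.25 CPM in UN_BFP, and ran from 0 to 46.4 CPM in CI_RFP with a median of 4.66. CLDN5 (ENSDARG00000014059) measured 7.82, 0 and 0 CPM in CI_BFP and 0, 0, 0 and 13.7 CPM in UN_BFP, and ran from 0 to 29.5 CPM in CI_RFP with a median of 0.0698. Both rows reached their highest level in CI_RFP 10, and in uninjured hearts both were read in UN_BFP 4 alone.

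Among the other surface and secreted products, ramp2 and aqp8a.1 had contrasting patterns. ramp2 encodes an accessory subunit of the adrenomedullin receptor. It was the only member at or above 1 CPM in all 15 libraries from injured hearts, from 12.4 to 172 CPM with a median of 45.4 in CI_RFP and at 161, 144 and 111 CPM in CI_BFP. In uninjured hearts it measured 349, 105, 88.1 and 85.7 CPM in UN_BFP, but in UN_RFP only UN_RFP 1 at 81.8 CPM and UN_RFP 6 at 285 CPM had any count. All 12 CI_RFP libraries thus contained ramp2, also those with as few as 2 or 3 members, while 4 of 6 UN_RFP libraries did not.

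aqp8a.1 encodes an aquaporin of the endothelium in zebrafish. It measured 2696, 528 and 1758 CPM in CI_BFP and 2214, 1664, 3377 and 226 CPM in UN_BFP. In CI_RFP it ranged from 0 to 957 CPM with a median of 1.85, and in UN_RFP from 0 to 1832 CPM with a median of 120.1. Every BFP library held at least 226 CPM, against 2 of 12 CI_RFP libraries (957 and 899.6 CPM) and 3 of 6 UN_RFP libraries (1637, 240.0 and 1832 CPM). The paralogs aqp8a.2 and aqp8b, listed apart, stayed at or below 0.637 CPM and at 0 respectively.

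vwf, the clotting factor stored in endothelial granules, measured 389, 98.3 and 12.7 CPM in CI_BFP and 169, 11.4, 28.4 and 311 CPM in UN_BFP. egfl7, which encodes a secreted matrix protein of growing vessels, measured 111, 39.6 and 25.2 CPM in CI_BFP and 336, 188, 579.7 and 68.1 CPM in UN_BFP. clec14a, a lectin of the endothelial surface, was at 104, 0 and 102 CPM in CI_BFP and at 130.3, 189, 83.0 and 37.5 CPM in UN_BFP. These genes had CI_RFP medians of 8.44, 11.8 and 0.799 CPM and UN_RFP medians of 4.08, 16.9 and 0 CPM in that order, and for each of them the RFP range overlapped the BFP range in both conditions.

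The plvap genes, whose products form the diaphragms of endothelial pores, went separate ways. plvapb measured 39.7, 14.5 and 19.9 CPM in CI_BFP and 0, 0, 0 and 20.8 CPM in UN_BFP, and reached 1 CPM in 3 of 12 CI_RFP and 2 of 6 UN_RFP libraries. plvapa measured 28.2 and 17.3 CPM in CI_RFP 2 and CI_RFP 12, where 11 and 6 members reached 1 CPM, and 60.1 and 58.3 CPM in UN_RFP 2 and UN_RFP 4, where 5 and 6 did. It was at 29.2, 0 and 0 CPM in CI_BFP and at 0, 3.49, 0 and 3.37 CPM in UN_BFP. plvapa and tie1 thus had their highest uninjured levels in RFP libraries that otherwise held few members.

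**Figure D3:**
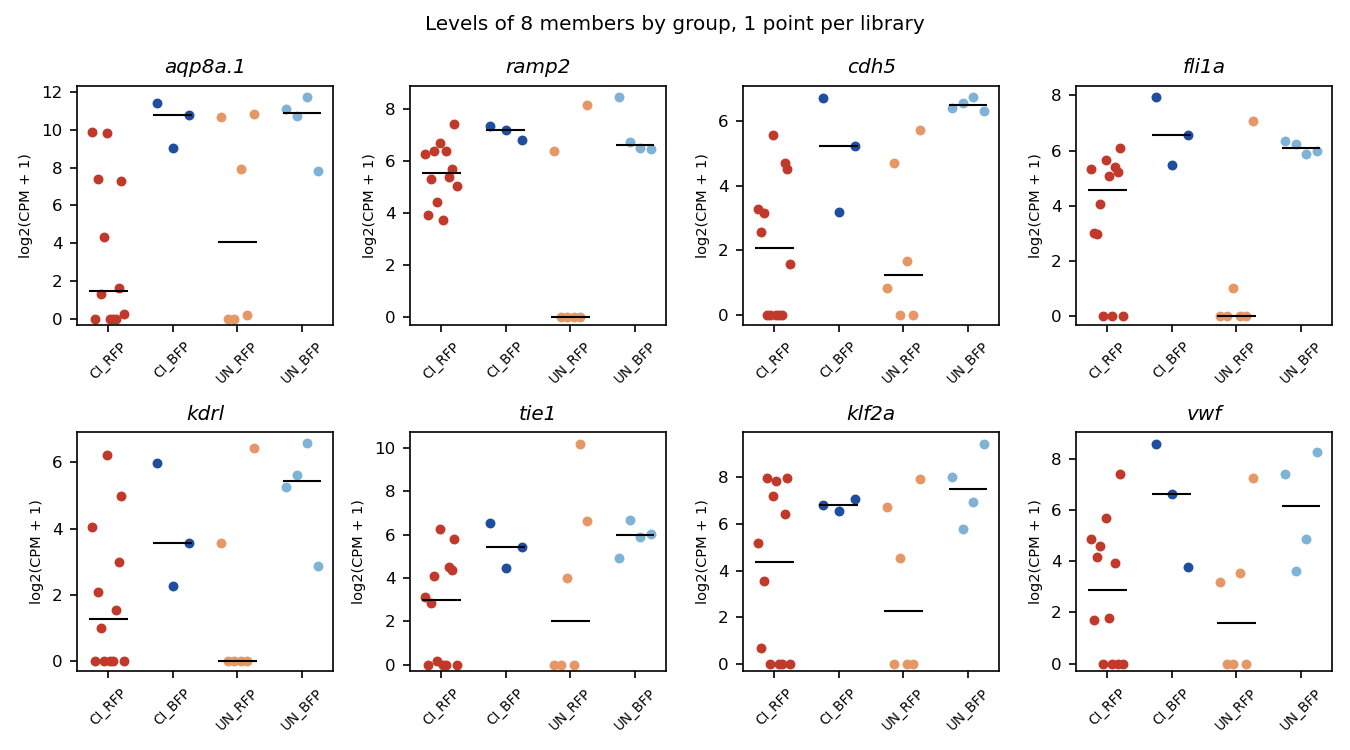
Levels of 8 members in the 4 groups as log2(CPM + 1), 1 point per library, with a line at the group median. The 4 UN_BFP points of cdh5 lie at 77.1 CPM or more and the 6 UN_RFP points at 51.5 CPM or less, ramp2 is above 0 in all 12 CI_RFP libraries, and the highest tie1 point is UN_RFP 5 at 1174 CPM.

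Of the ETS transcription factors, which hold the endothelial program, fli1a was the most regular. It measured 245, 44.2 and 93.0 CPM in CI_BFP and 79.9, 73.9, 58.1 and 62.9 CPM in UN_BFP, or 68.7 ± 9.99 CPM (SD, n = 4). In CI_RFP it ran from 0 to 66.7 CPM with a median of 24.3 and was present in 9 of 12 libraries. In UN_RFP it was at 1.05 CPM in UN_RFP 3, at 134 CPM in UN_RFP 6 and at 0 in the other 4. UN_RFP 6 alone kept the uninjured gates from lying apart for fli1a. The related gene fli1rs, listed apart, was at 52.0 to 76.2 CPM in CI_BFP.

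erg, another ETS factor, measured 82.3, 21.9 and 12.9 CPM in CI_BFP and 25.2, 84.6, 0 and 23.6 CPM in UN_BFP, with up to 24.7 CPM in CI_RFP and a count in 1 of 6 UN_RFP libraries. etv2, which specifies endothelium in the embryo, measured 24.2, 0 and 1.23 CPM in CI_BFP and 0, 19.0, 50.2 and 22.7 CPM in UN_BFP, and reached 39.6 CPM in CI_RFP 4. tal1 and lmo2 act together in early blood and endothelial precursors. tal1 had no count in UN_RFP and measured 0, 0, 38.5 and 6.63 CPM in UN_BFP, with up to 22.9 CPM in CI_RFP, and lmo2 reached 1 CPM in 7 of 12 CI_RFP, 2 of 3 CI_BFP, 2 of 6 UN_RFP and 2 of 4 UN_BFP libraries.

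The SoxF genes control arterial and lymphatic fate. sox7 measured 211, 0 and 66.2 CPM in CI_BFP and 43.9, 24.6, 20.2 and 79.98 CPM in UN_BFP, and in UN_RFP it exceeded 1 CPM only in UN_RFP 6 at 149 CPM. sox18 stood at 131, 0 and 0 CPM in CI_BFP, at 17.7, 35.7, 0 and 23.1 CPM in UN_BFP and at up to 45.6 CPM in CI_RFP. sox17 had counts in CI_RFP 1 at 2.04 CPM and CI_RFP 3 at 11.3 CPM and in no other library.

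klf2a and klf2b, flow-induced factors of endothelium and valves, and nfatc1, a factor of endocardium and valve formation, overlapped between the gates in both conditions. klf2a measured 112, 92.4 and 134 CPM in CI_BFP and 255.6, 53.8, 121 and 689 CPM in UN_BFP, and reached 229 CPM in CI_RFP 7, where 10 members were detected. klf2b ran from 0 to 312 CPM in CI_RFP with a median of 8.78. nfatc1 was present in 10 of 12 CI_RFP libraries, at 0 to 243 CPM with a median of 28.7, against 62.1, 21.9 and 37.1 CPM in CI_BFP. Its UN_BFP values were 53.5, 63.6, 29.3 and 69.98 CPM, and in UN_RFP it was read in UN_RFP 3 and UN_RFP 6 alone, at 56.7 and 62.9 CPM. klf2 and nfatc1 are also used outside the endothelium, in leukocytes among others.

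Among the Notch genes, NOTCH1 (ENSDARG00000052094) was detected most widely, at or above 1 CPM in 22 of 25 libraries. Notch1 receptors pattern arteries and the endocardium, and they also act in many other cells. This row measured 92.7, 6.78 and 39.1 CPM in CI_BFP, 14.4, 71.0, 192 and 45.3 CPM in UN_BFP, 0.405 to 70.1 CPM in CI_RFP with a median of 5.94, and 0 to 117 CPM in UN_RFP with a median of 11.6. NOTCH1 (ENSDARG00000103554) followed the gate more closely in uninjured hearts, at 21.6, 85.1, 35.7 and 23.8 CPM in UN_BFP and above 1 CPM only in UN_RFP 6 at 68.9 CPM. dll4, the Notch ligand of vessel tips and arteries, measured 22.2, 33.6, 58.7 and 8.25 CPM in UN_BFP and likewise exceeded 1 CPM in UN_RFP only in UN_RFP 6, at 60.9 CPM.

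flt4 and lyve1b had their highest levels in the same 3 RFP libraries from injured hearts, while the scavenger receptor genes stab1 and stab2 were spread more widely. flt4 encodes the VEGF-C receptor of lymphatic and venous endothelium. It was at 23.5 CPM in CI_RFP 4, 31.4 CPM in CI_RFP 9 and 45.5 CPM in CI_RFP 11, against 0.913 CPM in CI_RFP 10, 10.2 CPM in UN_BFP 2 and no count elsewhere. lyve1b, a hyaluronan receptor that marks lymphatic vessels in zebrafish, had counts in the same 3 libraries only, at 44.3, 22.6 and 4.97 CPM. These were 608, 166 and 39 reads, and lyve1b was the only member with counts in a single group apart from sox17. Its paralog lyve1a, listed apart, was found in all 4 groups, at up to 397 CPM in CI_RFP, 8.67 CPM in CI_BFP, 8.42 CPM in UN_RFP and 65.6 CPM in UN_BFP.

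stab1 and stab2 encode scavenger receptors of venous and lymphatic endothelium. stab2 measured 109 CPM in CI_RFP 4 and 49.3 CPM in CI_RFP 11, but 1.36 CPM in CI_RFP 9, and it reached 20.4 and 15.5 CPM in CI_RFP 10 and CI_RFP 12. Its BFP values were 11.9, 0 and 0 CPM in CI_BFP and 0, 0, 5.09 and 3.37 CPM in UN_BFP. stab1 was at 79.0 and 55.0 CPM in CI_RFP 4 and CI_RFP 9, at 29.5, 49.5 and 0.858 CPM in CI_BFP and at 37.8, 24.5, 39.4 and 8.25 CPM in UN_BFP. The 3 libraries with flt4 and lyve1b had aqp8a.1 at 1.53, 0 and 154 CPM, so the libraries highest in flt4 and lyve1b were not those highest in aqp8a.1. They also held high sums of the fibroblast and epicardium list, at 30171, 11442 and 44654 CPM, and leukocyte sums of 37.9, 5735 and 246 CPM. CI_RFP 7 and CI_RFP 10 held 27913 and 17142 CPM of the fibroblast and epicardium list. They had no lyve1b, and flt4 at 0 and 0.913 CPM.

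**Figure D4:**
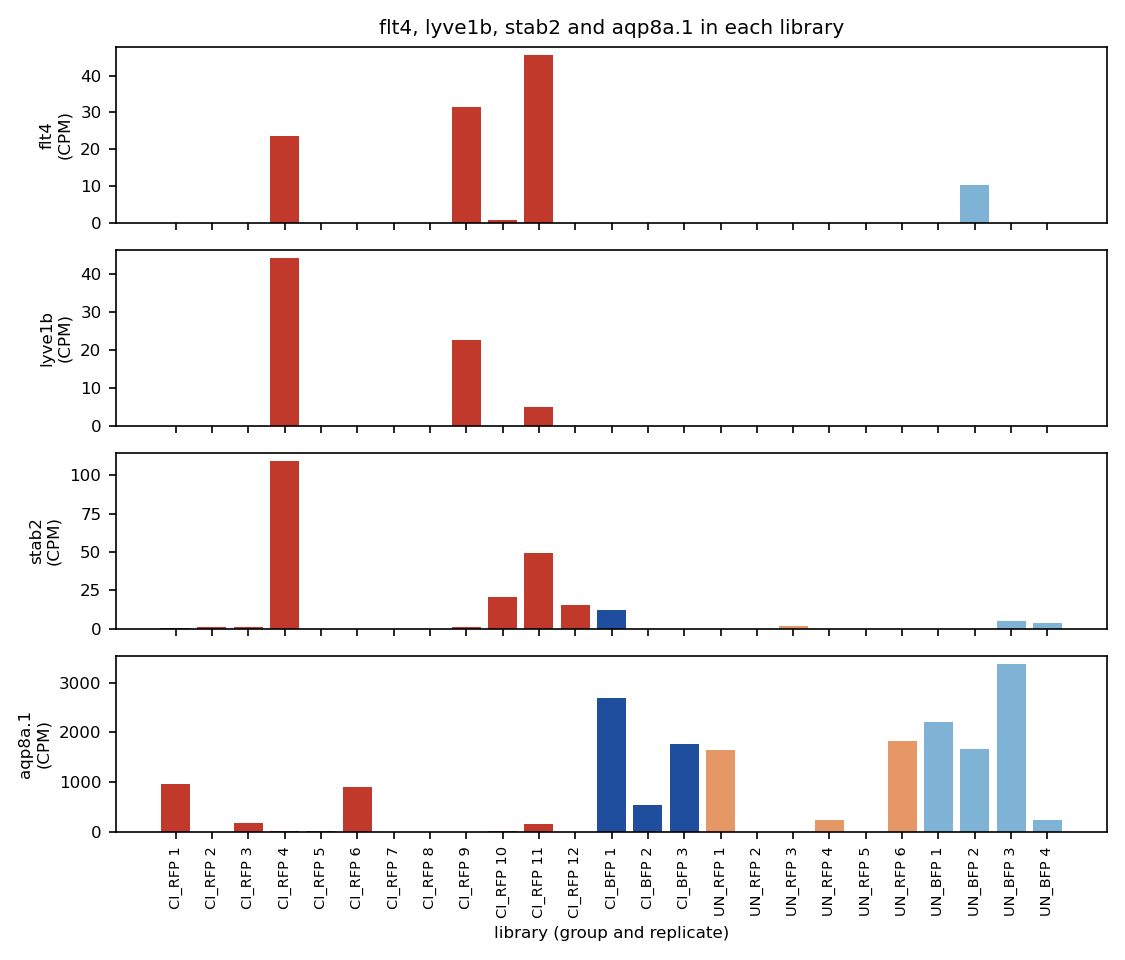
Level in CPM of flt4, lyve1b, stab2 and aqp8a.1 in each of the 25 libraries, coloured by group, on separate linear axes. flt4 and lyve1b peak in CI_RFP 4, 9 and 11, where aqp8a.1 is at 1.53, 0 and 154 CPM, while aqp8a.1 is at 226 CPM or more in every BFP library.

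The first comparison asks whether cells with sox10 history differ from the other reporter cells after cryoinjury. In CI_RFP against CI_BFP, 28 of 34 members had negative and 6 positive fitted log2 fold changes, with a median of -1.21 beside 0.22 over all genes. Leukocyte genes leaned the same way, with 10 of 10 negative (median -3.19). Positive were 15 of 15 cardiomyocyte genes (median 4.65), 9 of 10 mural genes (3.02) and 11 of 16 fibroblast and epicardium genes (0.96). So were 34 of 56 genes of the wider vessel list (0.82), 4 of 6 thrombocyte genes (0.71) and 5 of 5 erythrocyte genes (6.62). The 2 tested neural crest and glia genes were positive too (9.98). ednrab, 1 of these 2, and the erythrocyte gene hemgn had no count in CI_BFP, so both could only come out positive. In CI_BFP the erythrocyte list summed to 0.191, 1.17 and 0 CPM and the neural crest and glia list to 0, 0 and 1.23 CPM. Nothing is read from the medians of these 2 lists. These directions are those of edgeR's fit. In the fit of limma voom 27 members were negative and 7 positive (median -2.97 beside 0.09 over all genes). There 13 of 16 fibroblast and epicardium genes (-2.83) and 4 of 6 thrombocyte genes (-1.98) were negative too. In DESeq2 these 2 lists leaned positive (0.69 and 0.44), so their direction depended on the fit. No member passed Benjamini-Hochberg adjustment in edgeR's quasi-likelihood test, and neither did any of 14853 genes (0.0%). At an unadjusted p under 0.05 there were 2 members, both higher in CI_RFP, against 1385 genes (9.32%). Both had no count in CI_BFP, so they could only come out higher in CI_RFP. Both also passed the filter through CI_RFP alone. limma voom called 1 member against 1.43% of genes, and DESeq2 called 1 against 3.0%. No member had groups that did not overlap, against 1.83% of genes.

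The members of smallest p were flt4 and lyve1b, which had no count in CI_BFP. Their mean CI_RFP levels were at least 79.1-fold and at least 56.0-fold above the floor of 3 counts over the group (edgeR adjusted p = 0.524 for both), each from 3 or 4 of 12 libraries. esama followed at a mean of 8.12 ± 11.6 CPM (SD, n = 12) in CI_RFP and 53.1 ± 43.6 CPM (SD, n = 3) in CI_BFP, with a log2 fold change of -2.71 (SE 1.66, edgeR adjusted p = 0.682). fli1a stood at 24.6 ± 22.5 and 127 ± 105 CPM in the same groups (log2 fold change -2.37, SE 1.48, edgeR adjusted p = 0.713). None of them passed the threshold. The single member that voom called was aqp8a.1 (log2 fold change -8.39, voom adjusted p = 0.00821), for which the edgeR value was -3.18 (SE 2.20, edgeR adjusted p = 0.846), and DESeq2 called lyve1b (adjusted p = 0.000544), a gene with counts in 3 CI_RFP libraries set against none in CI_BFP.

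The second comparison puts the same gates side by side in uninjured hearts. In UN_RFP against UN_BFP, 30 members had negative and 3 positive log2 fold changes, with a median of -1.73 beside -0.43 over all genes. Some other lists leaned the same way. Negative were 16 of 16 fibroblast and epicardium genes (median -2.32), 9 of 10 leukocyte genes (median -1.56), 5 of 6 thrombocyte genes (median -1.36) and 41 of 56 genes of the wider vessel list (median -1.56). The cardiomyocyte list went the other way, with 14 of 15 genes positive (median 2.64). So did the 2 tested neural crest and glia genes (median 5.59), of which ednrab had no count in UN_BFP and could only come out higher in UN_RFP. The whole list of neural crest and glia IDs summed to 113, 0, 0 and 1.16 CPM in UN_BFP. In UN_RFP it summed to 0 to 68.8 CPM with a median of 9.41, so the sums overlapped. Erythrocyte genes were 3 positive and 1 negative (median 2.63), and mural genes 5 and 5 (median 0.46). Again edgeR called no member and no gene (0.0%). At an unadjusted p under 0.05 there were 4 members, all lower in UN_RFP, against 2639 genes (17.8%). These 4 had no count in UN_RFP, so they could only come out lower there. voom called 5 members (0.963% of genes) and DESeq2 1 (5.43% of genes). cdh5 was the member with groups that did not overlap.

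tal1, both CLDN5 rows and flt4 had the smallest p, and each lacked any count in UN_RFP. The mean UN_BFP level of tal1 was at least 191-fold above the floor (edgeR adjusted p = 0.115). That of CLDN5 (ENSDARG00000014059) was at least 58.2-fold above it (edgeR adjusted p = 0.116), that of flt4 at least 43.3-fold (edgeR adjusted p = 0.12) and that of CLDN5 (ENSDARG00000043716) at least 13.8-fold (edgeR adjusted p = 0.142). The last 3 rested on 1 UN_BFP library each. The members that voom called were ramp2, fli1a, NOTCH1 (ENSDARG00000103554), flt1 and stab1, with adjusted p of 0.0207, 0.0263, 0.0354, 0.0447 and 0.0303. All 5 were lower in UN_RFP, as were 141 of the 143 genes that voom called. DESeq2 called tal1 (adjusted p = 1.51e-13), which had no count in UN_RFP.

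voom and DESeq2 called members with all libraries kept, while in edgeR's main fit the calls on members in this comparison depended on UN_RFP 6. Without it, edgeR called 5 members (sox7, fli1a, NOTCH1 (ENSDARG00000103554), erg and stab1, all lower in UN_RFP) and 170 genes, the median of the members was -4.35 beside -0.78 over all genes, and 19 of 34 members against 25.3% of genes had an unadjusted p under 0.05. UN_RFP 6 held the highest UN_RFP level of each of these 5 members, so leaving it out lowered UN_RFP in these same genes. Those calls are therefore no separate support. The library had 27 members at or above 1 CPM, all 27 at or above 10 CPM. Its leukocyte sum was 605 CPM and its fibroblast and epicardium sum 2974 CPM. Its cardiomyocyte sum of 9655 CPM was the lowest of UN_RFP. What set this library apart was not tested, and no label distinguishes it.

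**Figure D5:**
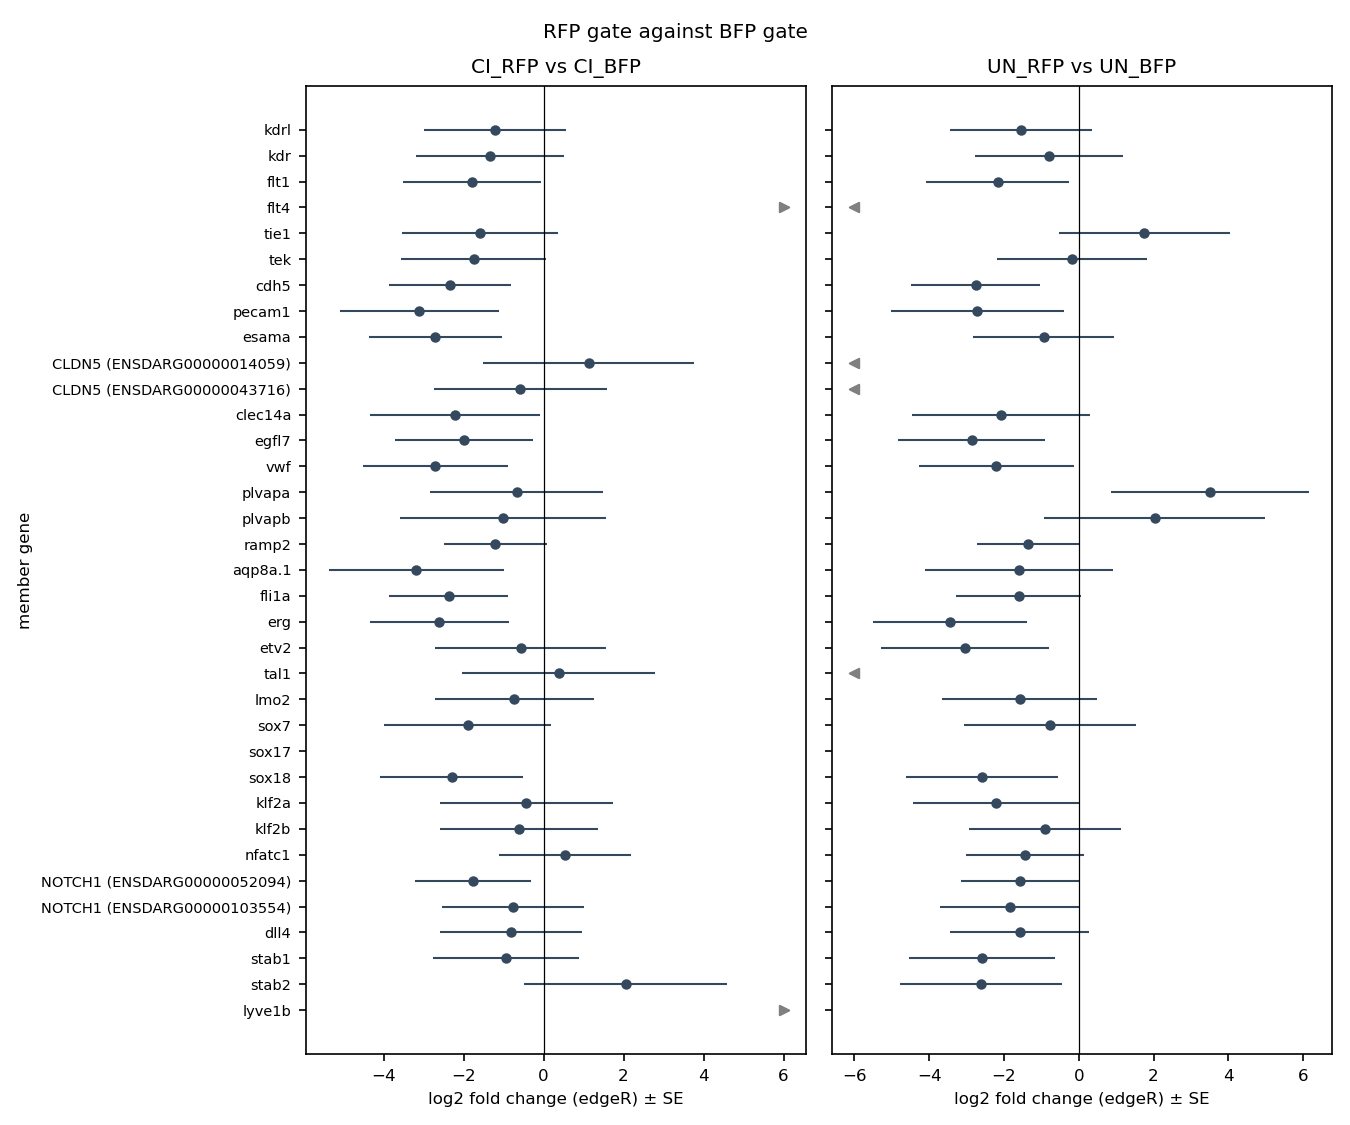
edgeR log2 fold change of each tested member with its SE, RFP against BFP, in injured (left) and uninjured hearts (right), with different horizontal ranges. Grey triangles, drawn at a fixed place and not at a measured value, mark members with no count in 1 group. Most points lie left of 0 (28 of 34 and 30 of 34 negative, triangles included), and no member passed the threshold.

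The third comparison follows cryoinjury within the RFP gate. In CI_RFP against UN_RFP, 19 members had positive and 15 negative log2 fold changes, and their median of 0.11 lay below that of all genes, 0.75. edgeR called 0 members and 4 of 14853 genes (0.0269%). At an unadjusted p under 0.05 there were 7 members, 6 of them higher after injury, against 17.0% of genes. Of these 6, 5 had no count in UN_RFP and could only come out higher. Among them lyve1b, flt4 and CLDN5 (ENSDARG00000014059) passed the filter through CI_RFP alone, the group where they were high. voom called 2 members (3.12% of genes) and DESeq2 4 (5.8% of genes). No member had groups that did not overlap, against 0.0673% of genes.

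The members of smallest p had no count in UN_RFP, and their edgeR adjusted p was 0.0912 in each case. The mean CI_RFP level was at least 149-fold above the floor for CLDN5 (ENSDARG00000043716), which 7 of 12 libraries held at 1 CPM or more. It was at least 143-fold above it for flt4 (3 of 12 libraries), at least 92.1-fold for tal1 (5 of 12) and at least 97.2-fold for CLDN5 (ENSDARG00000014059) (5 of 12). tie1 was the 1 member lower after injury at an unadjusted p under 0.05 (log2 fold change -3.66, SE 1.64, edgeR adjusted p = 0.229), at 16.9 ± 24.4 CPM (SD, n = 12) against 215 ± 472 CPM (SD, n = 6). Without UN_RFP 5, no member was lower at that level.

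voom called ramp2 (log2 fold change 5.79, adjusted p = 0.0256), where the edgeR fold change was -0.02 (SE 1.07, edgeR adjusted p = 0.999). Its means were 60.2 and 61.2 CPM, and 12 of 12 and 2 of 6 libraries held the gene. It also called CLDN5 (ENSDARG00000043716) (adjusted p = 0.0318). DESeq2 called that row, stab2, lyve1b and tal1, of which all but stab2 had no count in UN_RFP. Without UN_RFP 6, edgeR called sox7, fli1a and stab1, all higher in CI_RFP, and 160 genes. The median of the members was then 2.98 beside 1.23 over all genes. UN_RFP 6 held the highest UN_RFP level of these called members, so its removal lowered UN_RFP in the same genes. Without the 4 libraries under 5500 detected genes the median turned to -0.53 beside 0.49, with 20 of 34 members negative and no call.

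The fourth comparison follows cryoinjury within the BFP gate, with 3 and 4 libraries. In CI_BFP against UN_BFP, 15 members had positive and 18 negative log2 fold changes, with a median of -0.11 beside 0.00 over all genes, and with the size factors of DESeq2 in place of TMM the split turned to 20 positive and 13 negative with a median of 0.30 beside 0.46. edgeR called no member and no gene (0.0%), and 1 member, flt4, had an unadjusted p under 0.05 against 9.08% of genes. voom called 0 members (0.0741% of genes), and DESeq2 also called 0 (3.17% of genes). CLDN5 (ENSDARG00000043716) was the 1 member with groups that did not overlap, with every CI_BFP library above every UN_BFP library, against 4.85% of genes.

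That row had means of 13.1 ± 8.82 CPM (SD, n = 3) and 0.814 ± 1.63 CPM (SD, n = 4), a log2 fold change of 3.999 (SE 2.86) and an edgeR adjusted p of 0.99. flt4 had no count in CI_BFP, and its UN_BFP mean, from UN_BFP 2 alone, was at least 23.9-fold above the floor (edgeR adjusted p = 0.534). egfl7 (log2 fold change -2.32, SE 2.49) and plvapa (2.496, SE 2.73) came next, each with an edgeR adjusted p of 1.0. None of these differences exceeded the spread between libraries by the test.

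The interaction asks whether the injury difference itself differed between the gates. It was positive for 21 and negative for 13 members, with a median of 0.35 beside 0.81 over all genes. This split was not stable. It was 12 and 22 without the libraries under 5500 detected genes (median -0.36 beside 0.61) and 30 and 4 without UN_RFP 6 (3.43 beside 1.32). With voom it was 28 and 6 (2.16 beside 1.14). With all libraries kept, edgeR called no member and no gene (0.0%), and 3 members against 11.5% of genes had an unadjusted p under 0.05. voom called 0 members (0.0135% of genes) and DESeq2 2, lyve1b and tal1 (4.72% of genes). lyve1b had no count in 3 of the 4 groups and tal1 none in UN_RFP, so nothing is read from these DESeq2 calls. The members of smallest p were flt4 (edgeR adjusted p = 0.253), tal1 (0.32), CLDN5 (ENSDARG00000014059) (0.352) and CLDN5 (ENSDARG00000043716) (0.495), and all 4 lacked counts in at least 1 group, so no size is given. The comparisons that share a group are not independent of each other.

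A wider list of ligands, coreceptors, Notch partners and flow or BMP signalling genes around these vessels had 62 IDs, of which 56 were tested. edgeR called none of them in any of the 5 comparisons. Unadjusted p under 0.05 was reached by 10, 9, 8, 11 and 13 of 56 in the order above, against 9.32%, 17.8%, 17.0%, 9.08% and 11.5% of all genes. DESeq2 called 4, 5, 4, 5 and 8 of them, against 3.0%, 5.43%, 5.8%, 3.17% and 4.72% of all genes. voom called 3 in UN_RFP against UN_BFP (0.963% of all genes), 2 in CI_RFP against UN_RFP (3.12%) and 0 in the other comparisons. calcrla, the receptor that ramp2 serves, was the 1 of smallest p in CI_RFP against CI_BFP, with up to 47.7 CPM in 4 CI_RFP libraries and no count in CI_BFP (edgeR adjusted p = 0.524). BMP10 (ENSDARG00000109233), a cardiac ligand for endothelial receptors, had no count in UN_BFP and up to 47.5 CPM in 1 UN_RFP library (edgeR adjusted p = 0.115), and was the leading gene of CI_BFP against UN_BFP too, at up to 11.6 CPM in CI_BFP (edgeR adjusted p = 0.51). MRC1 (ENSDARG00000102100), a mannose receptor of lymphatic endothelium and macrophages, reached 38.4 CPM in 4 CI_RFP libraries and had no count in UN_RFP (edgeR adjusted p = 0.0912). For the interaction it was the chemokine gene cxcl12b (edgeR adjusted p = 0.253), with counts in 4 CI_RFP and 2 UN_BFP libraries only.

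In the lists of other cell types edgeR called no gene in these comparisons. The other tests did. In CI_RFP against CI_BFP voom called 6 of 10 leukocyte genes, all lower in CI_RFP. It also called 3 of 10 mural genes and 2 of 15 cardiomyocyte genes, all higher. DESeq2 called 7 of 15 cardiomyocyte genes, 3 of 10 mural genes and 1 of 6 thrombocyte genes, all higher. Of all genes voom called 1.43%, 131 higher and 82 lower, and DESeq2 3.0%, 438 higher and 8 lower. Both also called the 2 of 8 neural crest and glia IDs that passed the filter, higher in CI_RFP. The list summed to 0, 0 and 1.23 CPM in CI_BFP. Among the tested IDs, ednrab had no count in either BFP group and passed the filter through the RFP gate alone. Nothing about the list is read from these calls. In UN_RFP against UN_BFP DESeq2 called 2 cardiomyocyte, 2 thrombocyte, 1 mural and 1 neural crest and glia gene (5.43% of all genes). All but 1 thrombocyte gene were higher in UN_RFP. There voom called 1 fibroblast and epicardium gene, lower in UN_RFP (0.963% of all genes). In CI_BFP against UN_BFP DESeq2 called 1 cardiomyocyte and 2 mural genes, lower after injury, and 1 thrombocyte gene, higher (3.17% of all genes). In CI_RFP against UN_RFP voom and DESeq2 called 2 and 4 of 16 fibroblast and epicardium genes, against 3.12% and 5.8% of all genes. voom also called 1 neural crest and glia gene, and DESeq2 1 thrombocyte gene. All were higher after injury, as were all 463 genes that voom called and 833 of the 861 that DESeq2 called. For the interaction DESeq2 called 1 cardiomyocyte, 2 mural and 2 thrombocyte genes, against 4.72% of all genes. The leading gene of each list over the 4 pairwise comparisons was nppa for cardiomyocytes (higher in CI_RFP than CI_BFP, edgeR adjusted p = 0.0629). For leukocytes it was spi1a (lower in CI_RFP than CI_BFP, 0.524) and for thrombocytes GP1BB (ENSDARG00000074441) (lower in UN_RFP than UN_BFP, 0.121). It was hemgn for erythrocytes (higher in CI_RFP than UN_RFP, 0.0912), POSTN (ENSDARG00000104267) for fibroblasts and epicardium (higher in CI_RFP than UN_RFP, 0.148), cd248a for mural cells (higher in CI_RFP than CI_BFP, 0.421) and ednrab for neural crest and glia (higher in UN_RFP than UN_BFP, 0.115), each value being the edgeR adjusted p. Directions here are those of the fitted values and did not pass the test. hemgn had counts in 5 of 12 CI_RFP libraries, at up to 5.72 CPM, and in no other group. cd248a had no count in CI_BFP and ednrab none in UN_BFP, so these genes could only come out higher. nppa, a natriuretic peptide gene of cardiomyocytes, ran from 53.4 to 6455 CPM in CI_RFP and from 12.1 to 37.4 CPM in CI_BFP. spi1a, a myeloid transcription factor, ran from 125 to 749.6 CPM in CI_BFP and from 0 to 44.2 CPM in CI_RFP.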

How the data were processed

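RNA was measured in 25 libraries of 20 sorted cells each. The files hold raw counts of reads per Ensembl gene as the authors deposited them, without normalisation. The submitters' processing notes name FastQC 0.11.5, HISAT2 2.1.0, featureCounts 1.6.0 and GRCz11, with no settings, annotation release or strand. The deposited file names use another aligner's naming, so the program behind the counts is not settled. Without strand, antisense and overlapping genes cannot be told apart. Gene names came from a name table and RefSeq's older names, and no sequences or coordinates are given.

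filterByExpr by group kept 14853 genes. The main test was edgeR 4.0.16 (quasi-likelihood F test, robust, two-sided, TMM) under R 4.3.3, with 4 group means over all 25 libraries, 5 comparisons and Benjamini-Hochberg adjustment over all genes at 0.05. The SE is the size of the log2 fold change over the square root of F. The common biological coefficient of variation was 2.127. For a group without counts, the floor was 3 counts over its libraries (CI_RFP 0.0313 CPM, CI_BFP 0.107, UN_RFP 0.0589, UN_BFP 0.0641). It covers counting error only, because reads were not counted by molecular identifier. limma 3.58.1 voom, DESeq2 1.42.0, other scaling, no filter, the ratio of vmhc to myh6 as a covariate, only the groups compared, rows of the same name summed and left-out libraries were tried. In counts simulated for CI_RFP against UN_RFP (13948 genes), edgeR recovered 171 of 200 genes changed 256-fold with 34 false calls, voom 127 with 17 and DESeq2 152 with 174. The simulated spread was that of the fit with an upper limit set on it. Smaller changes were not simulated, so the recovery does not show whether they could be found.

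The members, gene lists and tests were chosen with earlier results of these data known. Named in each comparison were the members past the threshold or, where fewer than 4 passed, the 4 of smallest p. kdrl, cdh5, pecam1, tie1, fli1a and erg were always given with their levels, every member at 1 CPM in at least 50% of a group's libraries was described, and the leading gene of each other list was named. No pair of libraries had identical values.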

Additional observations from a re-analysis of the deposited data

Results flagged for a closer look

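Of 66 group values checked in UN_RFP and UN_BFP, 26 had 1 library far from the others of its group. In each, the gap to the nearest other library exceeded the 95% critical value of Dixon's test. Groups of 3 or 12 libraries were not checked. For normally distributed values, chance gives about 1 flag in 20. These levels hold many zeros, and a single library with counts among zeros is flagged by construction. No excess over chance is therefore read from the number of flags. The members share their libraries, so the flags are not independent.

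UN_RFP 6 was the highest library of its group in 18 of them. Its receptor and junction genes were kdrl at 84.7 CPM, flt1 at 125 CPM, pecam1 at 17.8 CPM and esama at 94.3 CPM. Surface and secreted products were vwf at 150.2 CPM, egfl7 at 166 CPM, plvapb at 127 CPM, stab1 at 27.3 CPM and ramp2 at 285 CPM. Transcription factors were fli1a at 134 CPM, erg at 18.4 CPM, klf2b at 230.1 CPM, sox7 at 149 CPM, sox18 at 14.2 CPM and lmo2 at 33.7 CPM. Notch genes were NOTCH1 (ENSDARG00000052094) at 117 CPM, NOTCH1 (ENSDARG00000103554) at 68.9 CPM and dll4 at 60.9 CPM. The other UN_RFP libraries stayed at or below 81.8 CPM in all 18.

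The single flag of UN_RFP 5 was tie1 at 1174 CPM, next to 98.2 CPM in UN_RFP 6. UN_RFP 3 was the only library of its group with stab2, at 1.94 CPM. In UN_BFP, flt4 at 10.2 CPM and lmo2 at 69.4 CPM stood apart in UN_BFP 2. CLDN5 (ENSDARG00000014059) at 13.7 CPM, CLDN5 (ENSDARG00000043716) at 3.25 CPM and plvapb at 20.8 CPM stood apart in UN_BFP 4, where the other 3 libraries were at 0. ramp2 at 349 CPM stood apart in UN_BFP 1, with 85.7 to 105 CPM in the others.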

How the results depend on the processing

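Among the counts of called members and genes, 271 of 338 alternatives stayed within 1.5 times the reported count and 67 moved. Apart from the genes of CI_RFP against UN_RFP, every reported count was 0, so an alternative that stayed also called none. Most alternatives left out 1 library, and no stability is read from this share. DESeq2 and voom both moved the count of called genes in every comparison. DESeq2 values without an adjusted p were taken as not past the threshold. The alternatives left 647 of 661 log2 fold changes of the named members with the same direction and side of the threshold, brought 11 past it and turned 3. No paired analysis was possible because no label numbers the replicates or ties a library to a fish or day.

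In CI_RFP against CI_BFP, DESeq2, voom and the ratio of vmhc to myh6 as a covariate called 1, 1 and 1 members, the last being esama (log2 fold change -7.78, adjusted p = 0.0289). Called genes were 1 with the size factors of DESeq2, 293 with no filter, 446 with DESeq2, 213 with voom, 11 with only the 2 groups in the fit and 130 with the covariate. In UN_RFP against UN_BFP, DESeq2, voom and the covariate called 1, 5 and 2 members, the last being flt4 and tal1, and no filter, DESeq2, voom and the covariate called 27, 806, 143 and 489 genes. In CI_RFP against UN_RFP, no filter, DESeq2 and voom called 3, 4 and 2 members and 513, 861 and 463 genes, and leaving out libraries under 3000 or under 5500 detected genes gave 0 and 0 genes. The 5500 limit was chosen after seeing the data and removes CI_RFP 5 and UN_RFP 1, 4 and 5. In CI_BFP against UN_BFP, DESeq2 and voom called 471 and 11 genes. For the interaction, DESeq2 called 2 members, and no filter, DESeq2 and voom called 2, 701 and 2 genes. The cause of these differences was not tested.

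Leaving out each library in turn gave 0 to 5 members and 0 to 170 genes in UN_RFP against UN_BFP, 0 to 3 members and 0 to 160 genes in CI_RFP against UN_RFP, 0 to 0 members and 0 to 9 genes in CI_RFP against CI_BFP, 0 to 0 members and 0 to 0 genes in CI_BFP against UN_BFP, and 0 to 0 members and 0 to 1 genes for the interaction. The highest values of UN_RFP against UN_BFP and of CI_RFP against UN_RFP came without UN_RFP 6, the only library whose removal changed a count of called members. The log2 fold change of plvapa in CI_BFP against UN_BFP ran from -6.89 without CI_BFP 1 to 3.10 without UN_BFP 2. That of CLDN5 (ENSDARG00000043716) in the interaction ran from -0.58 without UN_BFP 4 to 5.88 without CI_BFP 2, and turned to -1.66 with voom. flt4 without UN_BFP 2 in UN_RFP against UN_BFP and in CI_BFP against UN_BFP, and both CLDN5 rows without UN_BFP 4 in UN_RFP against UN_BFP, had no count left in the groups compared and gave no value. With a coefficient of variation of 2.127 and 3 to 12 libraries a group, differences in means such as 9.06-fold for aqp8a.1 between CI_BFP and CI_RFP and 10.9-fold for erg between UN_BFP and UN_RFP did not pass in edgeR.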
